A study of Mus musculus with 26 samples.

Results

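The mitotic G2/M genes described here are 36 mouse genes given as a list of names. They encode the enzymes, motors and structural proteins that carry a cell from the end of DNA replication through division. All 36 were found among the 47730 features of the raw count table and all 36 were tested, with a lowest total of 14951 reads over the libraries. They were followed in tumour cells of 4 groups and in the cultured line from which the tumours grew. E-A14, the line, consists of murine mammary tumour cells with Her2 expression, and it was placed in a mammary fat pad of FVB/N mice aged 6 to 8 weeks. Of the tumour groups, 2 came from mice injected with anti-CD4 and anti-CD8a antibodies, 100 µg of each, 2 times a week from 2 weeks before implantation, which removes T cells, and their tumours were taken on day 20. The other 2 came from mice given rat IgG2a and IgG2b on the same schedule, and those tumours were taken on day 47. Every tumour sample was sorted for live Her2+ cells without CD90, CD105 or CD45 and split by EpCAM, an epithelial surface protein, into a positive and a negative fraction. Each tumour group has 6 libraries and the culture has 2. All groups derive from 1 cell line, and treatment and day of collection cannot be told apart.

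Mitosis is started by the kinase CDK1 with its partner cyclins, and it is carried through by polo and aurora kinases, kinesin motors, kinetochore proteins and a bipolar spindle. A checkpoint holds the anaphase-promoting complex (APC/C), a ubiquitin ligase, until every chromosome is attached. Most genes of this machinery are transcribed late in the cell cycle, under the MuvB complex with B-Myb and FoxM1, so that their mRNA is abundant in dividing cells and scarce in resting ones.

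Library depth lay between 17559520 and 25601999 counted reads in the depleted groups, between 26895429 and 38740143 in the control groups, and at 27253363 and 35059744 in culture, so that depth and treatment cannot be told apart either. Genes with a read numbered 16852 to 20135 per library, and reads from mitochondrially encoded genes made up 0.440% to 1.08%. Levels are given below as CPM, a gene's reads relative to all reads of its library after TMM scaling. Changes are on the log2 scale, with their standard error (SE), from edgeR's quasi-likelihood test, and a gene is called higher or lower where the Benjamini-Hochberg adjusted p over 16637 genes is under 0.05. Epcam followed the sort, and its log2 change from the positive to the negative fraction was -9.49 in control and -4.12 in depleted tumours.

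Promoter sequence was read for the members with an entry in RefSeq (GRCm38.p6, a later build than the mm9 of the counts). The sequences are shown because the MuvB complex binds the cell cycle homology region, TTTGAA, and NF-Y binds the CCAAT box. Of the 36 genes, 30 had an entry, with 32 promoters, and the 250 bases before the start were searched on both strands. The letters TTTGAA, which may read TTCAAA, stood in 11 of the 32 promoters (34.4%), against 16.0% of 32851 promoters in the table. The letters CCAAT, which may read ATTGG, stood in 25 of them (78.1%), against 33.8% of all. Both stood in 10 (31.2%), against 5.5% of all. Of the E2F-type motifs of replication genes, GGCGGGAA was in 0 and TTTGGCGC in 0 of the 32 promoters. Over all promoters these were in 1.9% and 0.4%, so that 0 among 32 is near the share of all. In 34 promoters of DNA replication and G1/S genes these were in 11.8% and 8.8%, TTTGAA was in 11.8% and CCAAT in 58.8%. TTCGAA, a variant of the homology region, was in 2 of the 32 member promoters (6.2%) against 1.3% of all. A match is a description of letters and no test of binding. The 6 promoters below, read 5′ to 3′ towards the start of the gene, show TTTGAA and CCAAT, or their reverse complements, in capitals and all other letters in lower case. They belong to the cyclin Ccnb2 (chr9:70421555-70421731, minus strand), the APC/C activator Cdc20 (chr4:118437344-118437493, minus), the kinesin Kif2c (chr4:117178773-117178922, minus), the proliferation antigen Mki67 (chr7:135716380-135716529, minus), the topoisomerase Top2a (chr11:99024190-99024378, minus) and the ubiquitin-conjugating enzyme Ube2c (chr2:164769779-164769928, plus).
Ccnb2: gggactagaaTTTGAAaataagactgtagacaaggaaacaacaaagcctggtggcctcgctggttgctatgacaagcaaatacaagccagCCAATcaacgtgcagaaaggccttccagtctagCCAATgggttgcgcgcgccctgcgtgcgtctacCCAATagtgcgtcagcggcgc
Cdc20: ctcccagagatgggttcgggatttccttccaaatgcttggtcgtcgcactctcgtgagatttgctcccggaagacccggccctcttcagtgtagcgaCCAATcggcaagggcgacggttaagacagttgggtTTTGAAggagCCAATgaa
Kif2c: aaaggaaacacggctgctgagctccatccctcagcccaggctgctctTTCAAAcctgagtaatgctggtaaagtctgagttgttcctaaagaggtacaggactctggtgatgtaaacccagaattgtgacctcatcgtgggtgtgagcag
Mki67: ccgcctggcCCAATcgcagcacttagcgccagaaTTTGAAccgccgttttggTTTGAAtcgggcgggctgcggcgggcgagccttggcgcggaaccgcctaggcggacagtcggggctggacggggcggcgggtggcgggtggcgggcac
Top2a: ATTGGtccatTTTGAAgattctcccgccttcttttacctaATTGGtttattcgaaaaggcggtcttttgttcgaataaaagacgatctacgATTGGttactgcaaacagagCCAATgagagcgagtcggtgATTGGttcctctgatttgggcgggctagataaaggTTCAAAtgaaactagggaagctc
Ube2c: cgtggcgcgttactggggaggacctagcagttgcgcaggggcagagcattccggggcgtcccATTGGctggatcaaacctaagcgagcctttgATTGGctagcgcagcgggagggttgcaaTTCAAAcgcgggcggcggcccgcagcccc
In Cdc20 and Top2a the TTTGAA letters nearest the gene's start began 18 and 23 bases before it. The Kif2c window held TTTGAA letters and no CCAAT letters.

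The mitotic genes were most abundant in the cultured line and least abundant in EpCAM-positive cells of control tumours. Their reads made up 0.738% and 0.799% of all counts in the culture libraries. In depleted EpCAM-positive cells the share was lowest at 0.194%, with a median of 0.216% and a highest of 0.246%. In depleted EpCAM-negative cells it ran from 0.139% over a median of 0.168% to 0.189%. Control EpCAM-negative cells overlapped both, at 0.119%, 0.170% and 0.249%, and control EpCAM-positive cells lay at 0.05%, 0.101% and 0.138%, just under every library of the depleted groups. In such bulk samples fewer dividing cells and less mitotic RNA per cell cannot be told apart.

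Averaged over the 36 genes, the mean log2 CPM was 5.51 ± 0.14 (SD, n = 6) in depleted EpCAM-positive cells and 5.10 ± 0.16 in depleted EpCAM-negative cells. It was 4.38 ± 0.58 in control EpCAM-positive cells and 5.39 ± 0.38 in control EpCAM-negative cells, and 7.14 and 7.29 in the culture libraries. The order of the fractions was therefore opposite in the treatments, EpCAM-positive above EpCAM-negative without T cells and below it in control tumours. Genes of DNA replication and the G1/S transition (37 genes, such as Mcm2 and Pcna) spread less between the tumour groups, from 4.23 ± 0.28 in control EpCAM-positive to 4.66 ± 0.11 in depleted EpCAM-positive cells. The excess of the mitotic over the replication mean was 0.85 ± 0.14 and 0.61 ± 0.08 in the depleted positive and negative fractions, 0.15 ± 0.31 in control EpCAM-positive and 0.80 ± 0.16 in control EpCAM-negative cells.

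**Figure D1:**
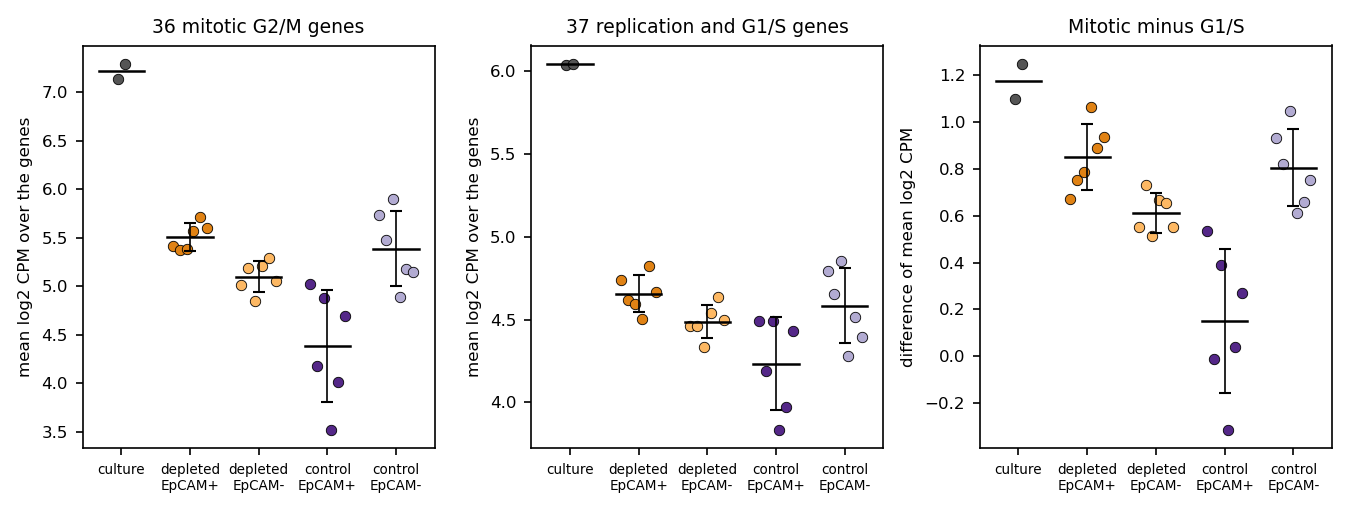
Mean log2 CPM per library over the 36 mitotic genes, over 37 DNA replication and G1/S genes, and the difference of these means, by group. Points are libraries and black bars are the mean ± SD. Control EpCAM-positive libraries spread from 3.52 to 5.02 in the mitotic mean, while depleted EpCAM-positive libraries lie between 5.37 and 5.71.

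Within a group, libraries of control tumours covered a wider range, a difference that was not tested. The median member differed 2.92-fold between its highest and lowest library in control EpCAM-positive cells and 2.14-fold in control EpCAM-negative cells, against 1.55-fold and 1.59-fold in the depleted fractions. In control EpCAM-positive cells library 4 was the lowest for 31 of 36 members and library 1 the highest for 22. In control EpCAM-negative cells library 4 was the lowest for 30 and library 3 the highest for 27, so that the members moved up and down together within a group. Ect2, the exchange factor that activates RhoA at the furrow, had the widest range, 8.91-fold in control EpCAM-positive cells. By group means, control EpCAM-positive cells were lowest for 35 of 36 members. The exception was Aurkb, the aurora kinase of the chromosomal passenger complex, which was lowest in depleted EpCAM-positive cells.

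**Figure D2:**
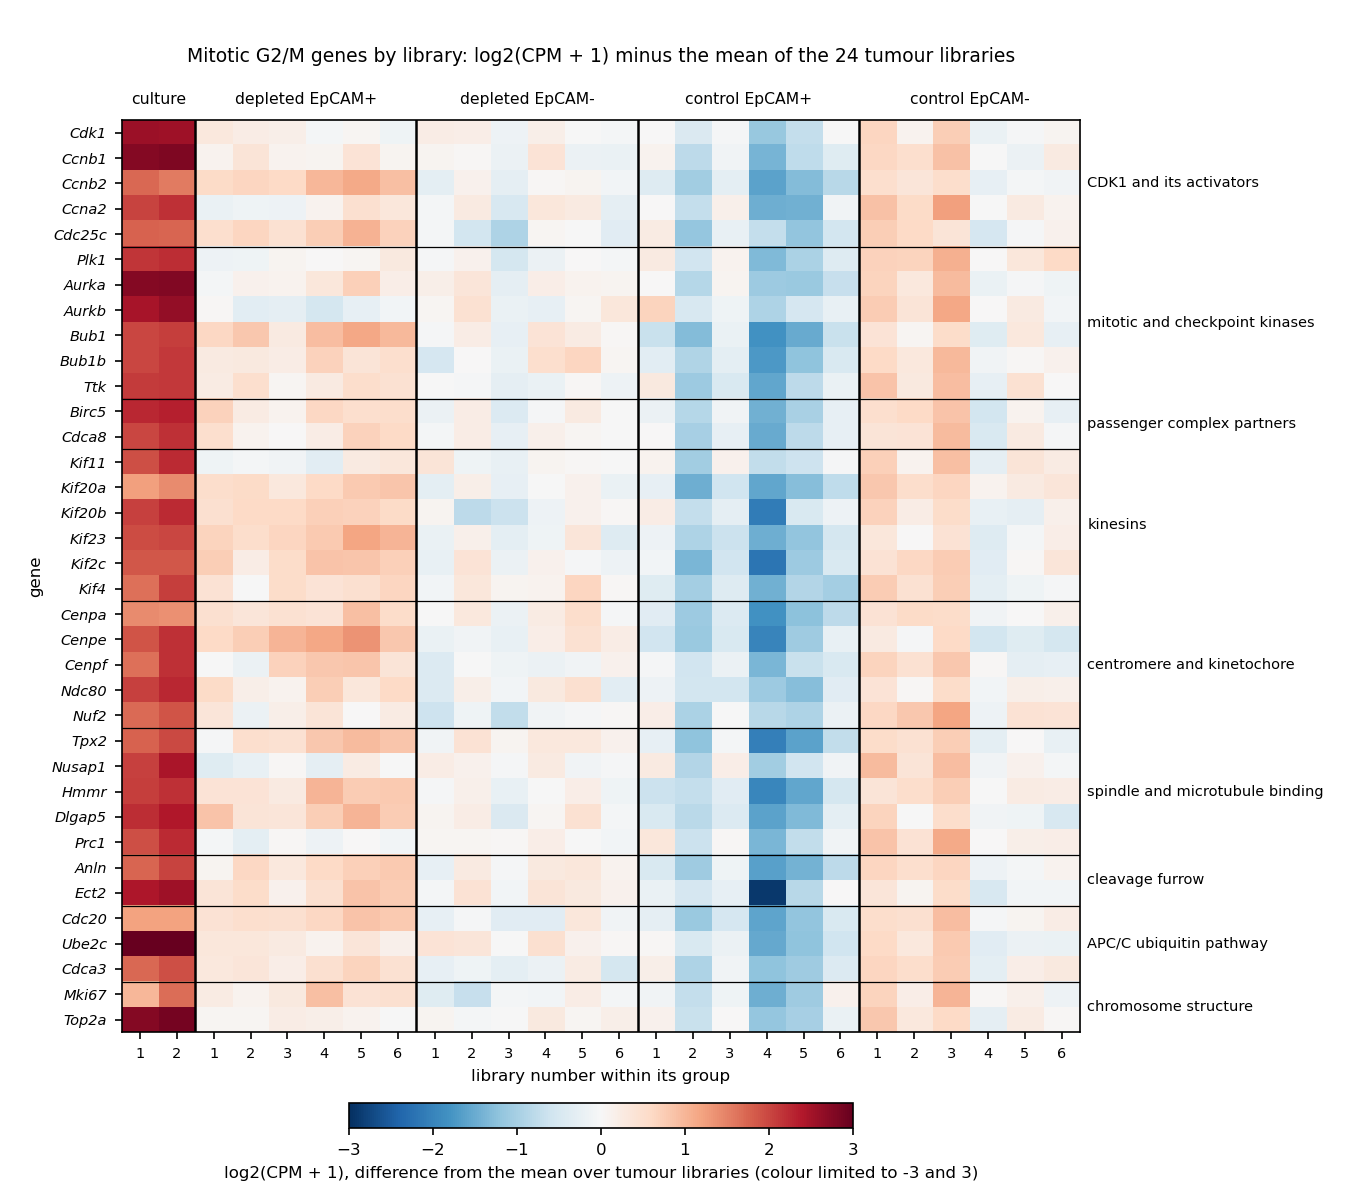
Heatmap of the 36 mitotic genes (rows, by role) in each library (columns, by group), as log2(CPM + 1) minus the gene's mean over the 24 tumour libraries, with colours limited at 3 either way. The culture columns are high in every row, and control EpCAM-positive library 4 is the lowest of its group for 31 of 36 members.

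Within control tumours, nearly the whole set was higher in EpCAM-negative than in EpCAM-positive cells. Of 36 members 35 were higher and 0 lower, where 13.3% of all tested genes were higher and 14.5% lower (7.96% and 21.8% when libraries were scaled by their totals alone). The members' log2 changes ran from 0.61 to 1.40 with a median of 0.91, and that of all tested genes was -0.01. edgeR and DESeq2 both called 0 members lower, as did an unadjusted p under 0.05. The member that missed the threshold was Ect2, with 0.65 ± 0.28 and an adjusted p of 0.0879. In 8 members every EpCAM-negative library lay above every EpCAM-positive one, which 6.31% of all tested genes did. These were Cdc20, Ccnb2, Ndc80, Cenpa, Kif20a, Kif4, Bub1b and Hmmr.

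Among the CDK1 activators, Ccnb2 encodes the cyclin that resides at the Golgi and is destroyed at anaphase. It lay at 16.9, 27.6 and 43.9 CPM (lowest, median and highest library) in control EpCAM-positive cells and at 45.2, 60.4 and 77.4 CPM in EpCAM-negative cells. The ranges were separate by a narrow margin, and the change was 1.05 ± 0.19 (adjusted p = 9.89e-05). Ccnb1, the main mitotic cyclin, lay at 4.31, 8.54 and 14.1 CPM against 11.4, 17.3 and 24.6 CPM, a change of 0.93 ± 0.21 (adjusted p = 0.00146). Processed copies of Ccnb1 exist in the mouse genome, and the sources used here do not say how reads shared with them were counted. Cdk1 itself changed least, by 0.61 ± 0.17 (adjusted p = 0.00861, but 0.0535 by library totals alone and 0.0639 in a fit of these groups alone), from 24.2, 46.6 and 54.9 CPM to 47.7, 58.3 and 90.9 CPM, with overlap.

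All 6 kinases of mitosis and its checkpoint were higher. The checkpoint kinase Bub1 and its relative Bub1b (BubR1) changed alike, by 1.14 ± 0.23 each (adjusted p = 0.000381 and 0.000403). In the passenger complex, which corrects faulty chromosome attachments, Birc5 (survivin) changed by 0.87 ± 0.22 (adjusted p = 0.00387) and Cdca8 (borealin) by 0.89 ± 0.22 (adjusted p = 0.00306).

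The largest change of all belonged to a motor. Kif20a, a kinesin of the central spindle needed for cytokinesis, rose from 24.4, 36.3 and 61.8 CPM in EpCAM-positive to 78.8, 100.5 and 129 CPM in EpCAM-negative libraries. These ranges were well apart, and the change was 1.40 ± 0.18 (adjusted p = 9.92e-07). The chromokinesin Kif4 changed by 1.16 ± 0.20 (adjusted p = 8.61e-05), and all 6 kinesins were higher. At the centromere, its histone H3 variant Cenpa rose from 13.2, 25.4 and 38.6 CPM to 45.9, 61.2 and 73.9 CPM, by 1.19 ± 0.19 (adjusted p = 2.83e-05). Nuf2, a subunit of the NDC80 complex that grips microtubules, changed by 1.03 ± 0.22 (adjusted p = 0.000721).

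Hmmr, a spindle pole protein, lay at 13.9, 35.1 and 44.9 CPM in EpCAM-positive and 56.6, 71.2 and 95.9 CPM in EpCAM-negative cells, a change of 1.25 ± 0.20 (adjusted p = 3.2e-05) with separate ranges. Tpx2, which activates aurora A on the spindle, changed by 1.10 ± 0.26 (adjusted p = 0.00183) and the furrow scaffold Anln (anillin) by 1.15 ± 0.20 (adjusted p = 0.000105). Cdc20, which turns on the APC/C at anaphase, rose from 13.3, 23.8 and 34.1 CPM to 40.5, 53.4 and 79.4 CPM, by 1.22 ± 0.19 (adjusted p = 1.95e-05). Cdca3, a trigger of mitotic entry, changed by 0.93 ± 0.21 (adjusted p = 0.00107). The proliferation marker Mki67 changed by 0.85 ± 0.24 (adjusted p = 0.00884), and Top2a, which untangles sister chromatids, by 0.74 ± 0.18 (adjusted p = 0.00239). Both overlapped between fractions, Mki67 with 17.7, 38.3 and 55.9 CPM against 45.8, 57.4 and 104 CPM.

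Markers of other cells also differed between these fractions. The 13 macrophage markers, none at 0 in any tumour group, summed to 123 to 285 CPM in control EpCAM-positive and 60.0 to 79.7 CPM in control EpCAM-negative cells, while in culture, with 3 of them at 0 including the leukocyte gene Ptprc, the sum was 70.0 and 71.5 CPM. The 10 fibroblast markers summed to 1229 to 3239 CPM and 1292 to 5036 CPM, mostly from Dcn and Col1a1. Of the 8 fibroblast markers tested 4 were called higher and 1 lower in the negative fraction, with a median log2 change of 1.59. Fap, Dpt and Pdpn had means of 0.043, 0.083 and 0.69 CPM in EpCAM-positive and 0.098, 0.26 and 0.31 CPM in EpCAM-negative cells. Thy1, which encodes the gated CD90, was at 0 in the negative fraction. The 8 pericyte and smooth muscle markers summed to 295 to 639 CPM and 577 to 1687 CPM, led by Pdgfrb. Of the 7 tested, 1 was called higher and 2 lower in the negative fraction. Endothelial sums were 5.51 to 24.7 CPM and 3.45 to 7.497 CPM, and neutrophil sums 2.15 to 4.48 CPM and 2.05 to 5.31 CPM. T and NK markers reached at most 3.92 CPM in any tumour library. Whether these transcripts came from such cells, and their part in the mitotic difference, was not tested.

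In depleted tumours the fractions stood the other way round. Of 36 members 13 were lower in EpCAM-negative cells, 0 were higher and 23 did not pass. The background was 14.3% lower and 14.2% higher. The median log2 change was -0.41, in a range from -1.01 to 0.34, against 0.01 over all tested genes. 0 members were higher at an unadjusted p under 0.05 in edgeR, and 0 were higher with DESeq2. In 9 members every EpCAM-negative library lay below every EpCAM-positive one, which 8.45% of tested genes did. A fit of these 12 libraries alone called 22 members lower.

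Kinesins gave 4 of the 13 calls. Kif23, a subunit of centralspindlin, lay at 72.6, 83.5 and 115 CPM in EpCAM-positive and 38.0, 44.0 and 64.0 CPM in EpCAM-negative cells, with no overlap and a change of -0.91 ± 0.18 (adjusted p = 0.0004). Kif20a lay at 92.4, 111 and 132 CPM against 59.5, 68.6 and 82.9 CPM, a change of -0.69 ± 0.17 (adjusted p = 0.0034). The other 2 kinesins called lower were Kif20b and Kif2c.

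Cdc25c, the phosphatase that activates CDK1, fell most, by 1.01 ± 0.24 on the log2 scale (adjusted p = 0.0019), from 23.0, 26.6 and 35.2 CPM to 8.14, 14.3 and 17.2 CPM. Ccnb2 lay at 80.8, 92.6 and 120 CPM and then 43.9, 52.9 and 58.4 CPM, a change of -0.90 ± 0.19 (adjusted p = 0.000481) with separate ranges. The kinetochore motor Cenpe changed by -0.90 ± 0.24 (adjusted p = 0.00452) and the kinetochore protein Cenpf by -0.59 ± 0.22 (adjusted p = 0.0432, lost by library totals alone, 0.0633, and in 9 of 12 fits without 1 library, up to 0.104). Also lower were Bub1, with -0.71 ± 0.22 (adjusted p = 0.0172), Hmmr, with -0.64 ± 0.20 (adjusted p = 0.0163), and the spindle protein Dlgap5, with -0.66 ± 0.23 (adjusted p = 0.029), of which Dlgap5 was lost in 4 of 12 fits without 1 library (up to 0.0698) and Hmmr without EpCAM-positive library 4 (0.0504). In the ubiquitin pathway Cdc20 changed by -0.74 ± 0.19 (adjusted p = 0.00378) and Cdca3 by -0.61 ± 0.21 (adjusted p = 0.0262, but 0.0564 without EpCAM-positive library 5 and 0.0636 without EpCAM-negative library 6), while Ube2c, the APC/C's own conjugating enzyme, did not pass.

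Cdk1, Top2a and Ccnb1 showed values near 0 here, while the CDK1 activators Cdc25c and Ccnb2 were called lower, as given above. Cdk1 had a change of -0.04 ± 0.17 (adjusted p = 0.916), with 49.9, 59.3 and 67.5 CPM in EpCAM-positive and 48.7, 57.8 and 64.0 CPM in EpCAM-negative libraries. Top2a had -0.01 ± 0.18 (adjusted p = 0.982) and Ccnb1 -0.20 ± 0.21 (adjusted p = 0.535), and the sign of Top2a and of Cdk1 depended on single libraries. Values of -0.59 ± 0.24 for Mki67 (adjusted p = 0.0698), -0.48 ± 0.24 for the checkpoint kinase Ttk (0.142), -0.48 ± 0.22 for Birc5 (0.114) and -0.36 ± 0.22 for Cdca8 (0.248) missed the threshold. So did Anln, with -0.40 ± 0.20 (adjusted p = 0.145), and Ect2, with -0.35 ± 0.28 (adjusted p = 0.389). Macrophage markers summed to 177 to 271 CPM in the positive and 150 to 357 CPM in the negative fraction of these tumours, and fibroblast markers to 79.2 to 231 CPM and 169 to 252 CPM. Pericyte and smooth muscle markers summed to 58.7 to 121 CPM and 16.2 to 42.1 CPM without overlap. Endothelial markers summed to 31.8 to 61.4 CPM and 10.5 to 40.4 CPM. These sums were lower in the negative fraction through Notch3, with a mean of 80.5 CPM in the positive fraction, and Cdh5, with 38.3 and 14.6 CPM. Of 7 pericyte markers tested 3 were called higher and 1 lower in the negative fraction, and of 9 endothelial markers 1 higher and 0 lower. The median log2 changes of these lists were 1.81 and 0.40. Neutrophil sums were 8.82 to 16.1 CPM and 10.7 to 21.2 CPM. Their part in the differences was not tested.

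The change between fractions was tested for a difference between control and depleted tumours. It was more positive in control tumours for 29 of 36 members and less positive for 0, also at an unadjusted p under 0.05 and with DESeq2. Over all tested genes 8.69% were more positive and 9.33% less (5.43% and 16.4% by library totals alone). The members' median difference was 1.42 log2 units, in a range from 0.35 to 2.09, against -0.05 for all tested genes. All 13 members that were higher in the negative fraction of control and lower in that of depleted tumours passed. That largely follows from those calls, since the difference is the control change minus the depleted change. Of the 22 that were higher in control and did not pass in depleted tumours, 16 passed.

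Kif20a differed most, by 2.09 ± 0.25 (adjusted p = 1.34e-06). Kif23, of the same role, differed by 1.80 ± 0.26 (adjusted p = 1.75e-05). Ccnb2 differed by 1.95 ± 0.26 (adjusted p = 7.33e-06) and Cdc20 by 1.95 ± 0.27 (adjusted p = 8.78e-06), and so did Hmmr, by 1.89 ± 0.28 (adjusted p = 2.94e-05). Bub1 differed by 1.85 ± 0.32 (adjusted p = 0.000152) and Cdc25c by 1.84 ± 0.34 (adjusted p = 0.000299).

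At the kinetochore Cenpe differed by 1.70 ± 0.33 (adjusted p = 0.00065) and Cenpa by 1.56 ± 0.27 (adjusted p = 0.000143). Dlgap5 differed by 1.60 ± 0.32 (adjusted p = 0.000795), Anln by 1.55 ± 0.29 (adjusted p = 0.000331) and Cdca3 by 1.54 ± 0.29 (adjusted p = 0.000411). Smaller differences passed for Ttk, 1.50 ± 0.34 (adjusted p = 0.00234), Mki67, 1.43 ± 0.34 (0.0036), Birc5, 1.35 ± 0.31 (0.00308), Cdca8, 1.25 ± 0.31 (0.00557), Ccnb1, 1.13 ± 0.30 (0.00855), and Top2a, 0.75 ± 0.25 (0.0375). The call of Top2a was lost by library totals alone (adjusted p = 0.119) and in 13 of 24 fits without 1 library (up to 0.0822). The 7 that did not pass were Aurkb, Nusap1, Cdk1, Kif11, Prc1, Ube2c and Ect2. Cdk1 had 0.64 ± 0.24 (adjusted p = 0.0666) and Ect2 1.00 ± 0.40 (adjusted p = 0.0825).

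**Figure D3:**
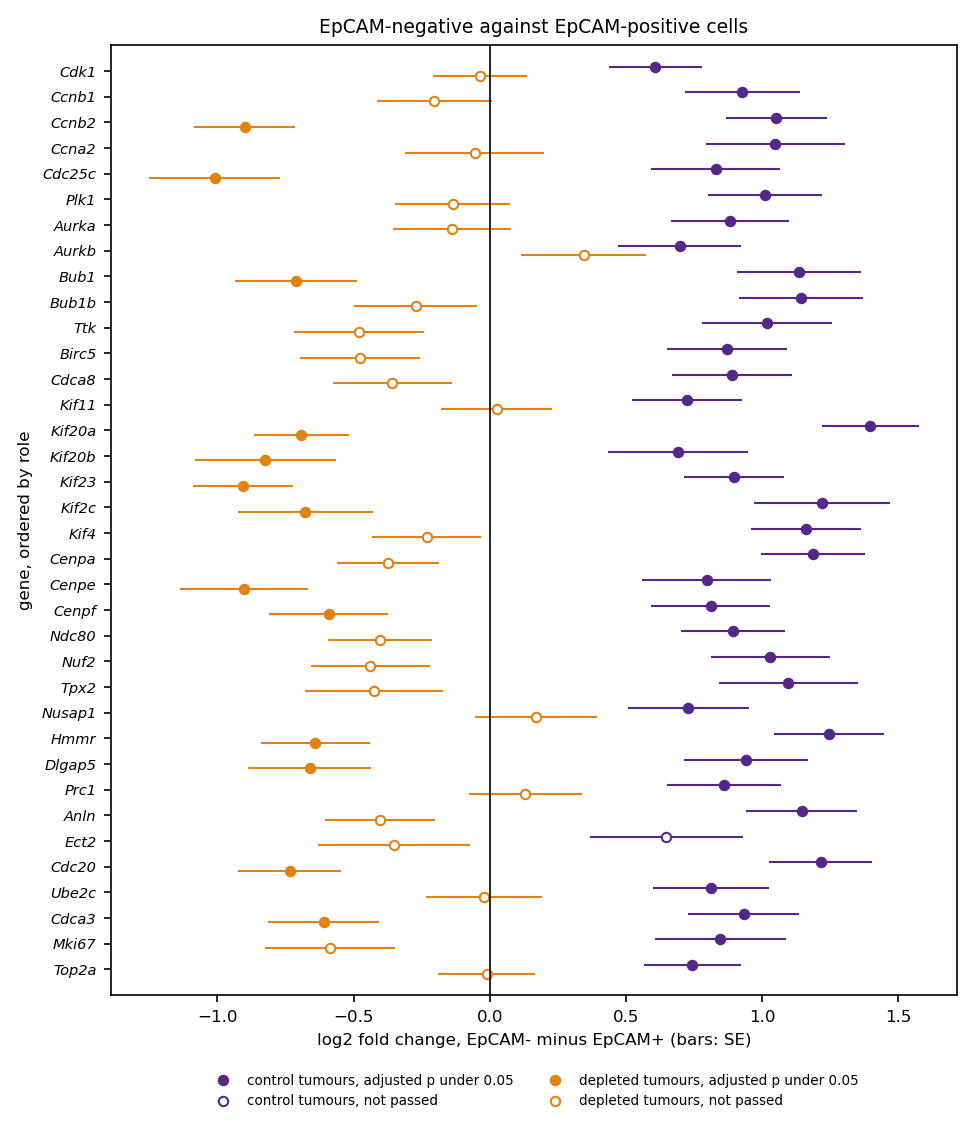
Log2 fold change from EpCAM-positive to EpCAM-negative cells for each of the 36 mitotic genes, in control and in depleted tumours, with standard errors. Control values run from 0.61 to 1.40, all above 0, and depleted values from -1.01 to 0.34.

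Set against depleted tumours, the members were lower in the EpCAM-positive cells of control tumours. Of 36 members 30 were lower and 0 higher, where 17.6% of all tested genes were lower and 22.4% higher. 0 members were higher at an unadjusted p under 0.05 in edgeR and 0 with DESeq2. The median log2 change was -1.06, from -1.82 to 0.05, against 0.02 over all tested genes. In 22 members every control library lay below every depleted library, as in 9.21% of tested genes.

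Cenpe had the lowest value, -1.82 ± 0.24 (adjusted p = 1.04e-06), with 55.8, 69.6 and 94.9 CPM in depleted and 8.49, 20.5 and 31.2 CPM in control cells. Bub1 changed by -1.81 ± 0.23 (adjusted p = 5.28e-07), from 33.4, 51.5 and 62.7 CPM to 7.07, 13.7 and 24.1 CPM. Ccnb2 changed by -1.69 ± 0.19 (adjusted p = 6.7e-08). None of these 3 had overlapping libraries. The kinesins Kif23 and Kif20a changed by -1.62 ± 0.19 and -1.55 ± 0.18 (adjusted p = 1.09e-07 for each), and Dlgap5 by -1.55 ± 0.23 (adjusted p = 5.83e-06). Hmmr changed by -1.51 ± 0.20 (adjusted p = 1.29e-06), Cdc20 by -1.44 ± 0.19 (1.04e-06), Cenpa by -1.43 ± 0.19 (1.18e-06), Anln by -1.36 ± 0.20 (6.23e-06) and Cdc25c by -1.26 ± 0.24 (0.000126).

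Changes near -1 were found for Bub1b, -1.17 ± 0.23 (adjusted p = 0.000189), Ect2, -1.11 ± 0.28 (0.00262), Birc5, -1.04 ± 0.22 (0.000486), and Cdca3 and Cdca8, -0.95 ± 0.21 and -0.95 ± 0.22 (0.000537 and 0.00111). The common markers of dividing cells had values nearer 0. Mki67 changed by -0.90 ± 0.24 (adjusted p = 0.00374), Ccnb1 by -0.73 ± 0.21 (0.00735), Top2a by -0.51 ± 0.18 (0.0239) and Cdk1 by -0.44 ± 0.17 (0.0416), of which Top2a was lost without control library 2, 4 or 5 (adjusted p up to 0.0724) and Cdk1 in 7 of 12 fits without 1 library (up to 0.111), by library totals alone (0.0503) and without the low-count filter (0.0758). Members that did not pass were Ccna2, Plk1, Kif11, Prc1, Nusap1 and Aurkb. Aurkb stood at 0.05 ± 0.23 (adjusted p = 0.888), with 10.1, 12.5 and 15.6 CPM in depleted and 7.56, 11.7 and 24.6 CPM in control cells. Without control library 4, in which 31 members were lowest, the count of members called lower was 27.

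The fibroblast marker sum, 79.2 to 231 CPM in depleted and 1229 to 3239 CPM in control EpCAM-positive cells, and the pericyte sum, 58.7 to 121 CPM and 295 to 639 CPM, were higher in control cells. The sum of 8 neutrophil markers was lower there, 8.82 to 16.1 CPM in depleted and 2.15 to 4.48 CPM in control cells. It was led by S100a8, with means of 9.07 and 2.60 CPM. The cultured line alone had sums of 30.2 and 31.9 CPM, with a mean of 30.0 CPM for S100a8. Of the 5 neutrophil markers tested 2 were called lower and 0 higher in control cells. The sum of 9 endothelial markers was also lower, 31.8 to 61.4 CPM against 5.51 to 24.7 CPM. It was carried by Cdh5, with means of 38.3 and 2.18 CPM. Of these 9 markers 3 were called higher and 1 lower in control cells, with a median log2 change of 1.94. Of the 13 macrophage markers 8 were called lower and 1 higher, with a median log2 change of -1.63, although their sums of 177 to 271 CPM and 123 to 285 CPM overlapped. All 5 genes that mark the sort and the line, Epcam, Krt8, Krt18, Erbb2 and the rat Neu transcript, were called lower in control cells. The keratin genes Krt8 and Krt18, marks of epithelial cells, changed by -1.16 and -1.68. Rat Neu had means of 536 CPM in depleted and 305 CPM in control cells. The part of all these markers in the result was not tested.

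In EpCAM-negative cells few members differed between the treatments. Of 36 members 6 were higher in control than in depleted tumours, 0 were lower and 30 did not pass. The background was 23.2% higher and 21.9% lower (17.2% and 33.1% by library totals alone), so that the members' share of calls was near it. The median log2 change was 0.34, against -0.03 over all tested genes, and in 0 members were all control libraries above or below all depleted ones, as 14.5% and 10.4% of tested genes were. An unadjusted p under 0.05 counted 10 higher and 0 lower, and DESeq2 8 higher and 0 lower. The 6 fell to 3 without control EpCAM-negative library 1, to 3 without library 3, in which 27 members were highest, and to 2 by library totals alone.

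The 6 were Nuf2, Plk1, Cdca3, Kif20a, Cdc20 and Cdc25c. Nuf2 lay at 12.1, 19.0 and 21.3 CPM in depleted and 18.6, 30.3 and 48.9 CPM in control cells, a change of 0.88 ± 0.22 (adjusted p = 0.00171). Plk1, the polo kinase that drives entry and spindle assembly, lay at 15.3, 22.0 and 24.9 CPM and 22.7, 35.7 and 48.5 CPM, a change of 0.72 ± 0.21 (adjusted p = 0.00641). The ranges of both genes overlapped between the treatments. Cdca3 changed by 0.59 ± 0.20 (adjusted p = 0.0211), Cdc25c by 0.58 ± 0.24 (0.0497), Kif20a by 0.54 ± 0.17 (0.0129) and Cdc20 by 0.51 ± 0.19 (0.027), and none of these 4 passed by library totals alone (adjusted p of 0.112, 0.183, 0.0992 and 0.165). Without 1 library Cdc25c was lost in 7 of 12 fits (up to 0.135), Cdc20 in 5 (up to 0.0943) and Cdca3 in 3 (up to 0.0577).

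Just short of the threshold lay Ttk, 0.57 ± 0.24 (adjusted p = 0.0506), the microtubule bundler Prc1, 0.50 ± 0.21 (0.0538), Mki67, 0.53 ± 0.24 (0.0729), and cyclin A, Ccna2, 0.54 ± 0.25 (0.0844). Values further off were 0.42 for Cenpf (adjusted p = 0.124), 0.40 for Ccnb1 (0.124), 0.38 for Hmmr (0.125), 0.37 for Kif11 (0.137), 0.31 for Birc5 (0.268), 0.29 for Cdca8 (0.285), 0.24 for Top2a (0.277), 0.20 for Cdk1 (0.353), 0.18 for Anln (0.482) and -0.11 for Ect2 (0.785). Macrophage markers, with 150 to 357 CPM in depleted and 60.0 to 79.7 CPM in control cells, and fibroblast markers, with 169 to 252 CPM and 1292 to 5036 CPM, differed between the same groups. So did the sum of pericyte markers, with 16.2 to 42.1 CPM and 577 to 1687 CPM. In control cells that sum was led by Pdgfrb, with a mean of 1064 CPM. Of the 7 pericyte markers tested 2 were called higher and 2 lower in control cells, with a median log2 change of -0.79. Endothelial markers, with 10.5 to 40.4 CPM and 3.45 to 7.497 CPM, and neutrophil markers, with 10.7 to 21.2 CPM and 2.05 to 5.31 CPM, differed too. The neutrophil sum was led by S100a8 in both groups, a gene with a mean of 30.0 CPM in the cultured line. The part of all these markers in the differences was not tested.

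**Figure D4:**
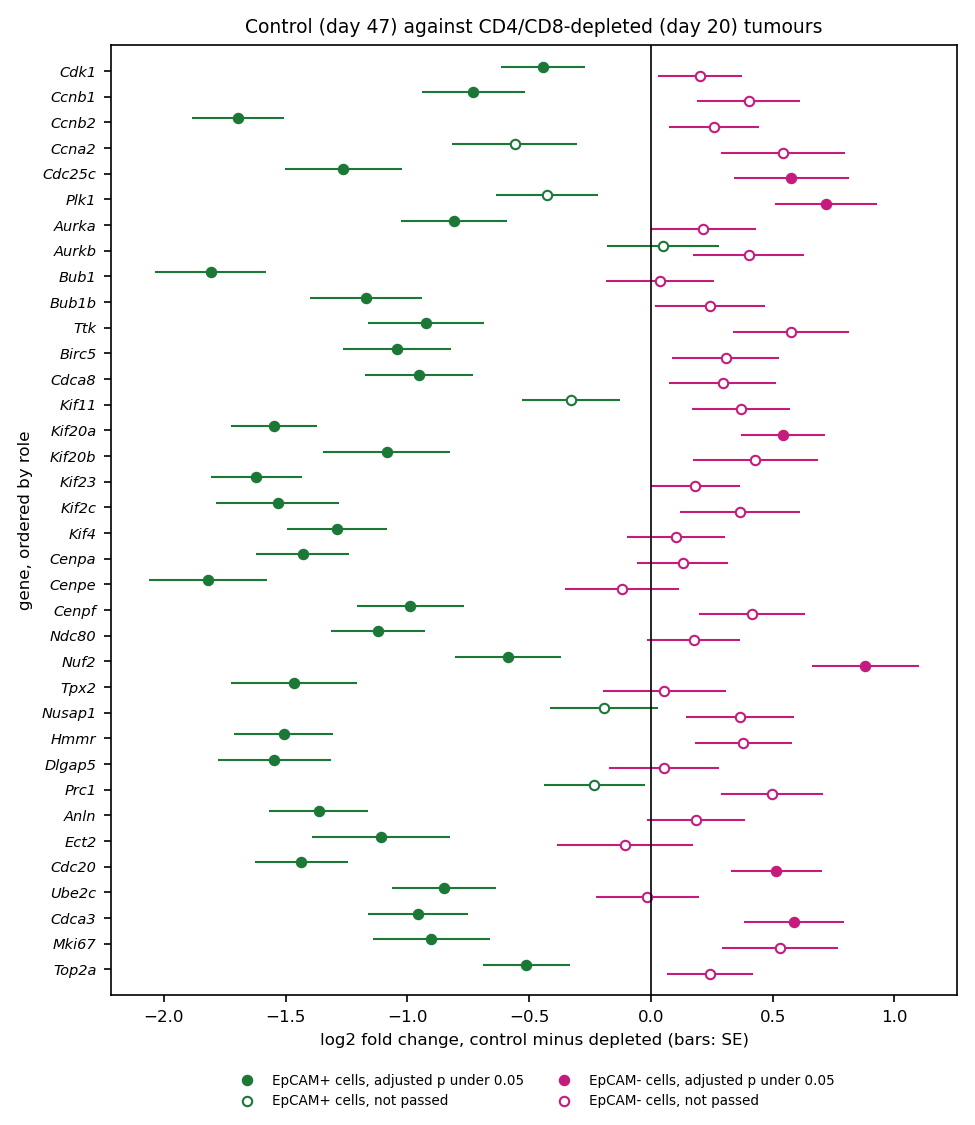
Log2 fold change from depleted to control tumours for each of the 36 mitotic genes, in the EpCAM-positive and the EpCAM-negative fraction, with standard errors. EpCAM-positive values reach down to -1.82 for Cenpe, with 30 genes lower, while in EpCAM-negative cells 6 genes are higher and 30 do not pass.

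Every tumour group had less mitotic RNA than the cultured line. Of 36 members, 35 were lower in depleted EpCAM-positive, 36 in depleted EpCAM-negative, 36 in control EpCAM-positive and 36 in control EpCAM-negative cells, and 0 were higher in any of them by edgeR, by DESeq2 or at an unadjusted p under 0.05. Over all tested genes 18.6%, 20.6%, 22.4% and 24.2% were lower and 20.9%, 21.8%, 27.8% and 26.5% higher. The median log2 changes were -1.65, -2.10, -2.73 and -1.72, against 0.11, 0.09, 0.17 and 0.08 over all tested genes. All tumour libraries lay below both cultures for 36, 36, 36 and 35 members, as 22.6%, 24%, 25.6% and 27.5% of tested genes did, and the exception was Mki67. The culture has 2 libraries, and the labels do not say that they were grown separately. Since the 4 comparisons share these libraries, their values are set side by side only.

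The fall was uneven over the members. Ube2c, at 360 and 379 CPM in culture, had log2 changes of -2.90, -2.92, -3.75 and -2.94 in the order above (SE 0.27 each). Top2a, at 783 and 851 CPM in culture, had -2.72, -2.73, -3.23 and -2.49, and Cdk1, at 325 CPM in both cultures, had -2.47, -2.51, -2.91 and -2.30. Ccnb1 had -2.65, -2.86, -3.38 and -2.45, and Aurka, the spindle pole aurora kinase, -2.54, -2.68, -3.34 and -2.46. Their adjusted p was at most 5.36e-08. These 5 members fell by more than the median member in every group.

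At the other end, Cdc20 had -0.59 ± 0.25 in depleted EpCAM-positive cells (adjusted p = 0.0682), the only miss, and -1.32, -2.03 and -0.81 in the rest. Kif20a had -0.71, -1.40, -2.25 and -0.86, and Mki67 -0.95, -1.53, -1.85 and -1.0 (adjusted p = 0.0194, 0.000261, 1.65e-05 and 0.01, the outer ones 0.321 and 0.237 without culture library 2). The cyclin pair shows the contrast, since Ccnb2, with 161 and 180 CPM in culture, had -0.83, -1.73, -2.52 and -1.47 where Ccnb1, with 93.4 and 97.0 CPM, had the larger falls given above. Aurkb had -2.87, -2.52, -2.82 and -2.12.

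Between these ends lay Birc5, with -1.86, -2.34, -2.90 and -2.03, Cdca8, with -1.76, -2.12, -2.71 and -1.82, and Cdca3, with -1.43, -2.05, -2.39 and -1.46. The kinetochore subunit Ndc80 had -1.77, -2.17, -2.89 and -2.0, and Nuf2, its partner, -1.66, -2.09, -2.24 and -1.21. Anln had -1.36, -1.76, -2.72 and -1.58 and Ect2 -1.95, -2.31, -3.06 and -2.41. In all of these control EpCAM-positive cells had the lowest value. Kif11, the motor that separates spindle poles, had -2.12, -2.10, -2.45 and -1.73, Kif23 -1.16, -2.06, -2.78 and -1.88, and Kif4 -1.47, -1.70, -2.76 and -1.60. Hmmr had -1.52, -2.16, -3.03 and -1.78, Dlgap5 -1.64, -2.30, -3.18 and -2.25, Nusap1 -2.41, -2.24, -2.61 and -1.88, and Prc1 -2.21, -2.08, -2.45 and -1.59. Cenpe had -1.09, -1.99, -2.91 and -2.11, and Bub1 -1.23, -1.95, -3.04 and -1.91.

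Per kilobase of exon, the scale on which levels of different genes can be compared, Ccnb2 had the highest mean in control EpCAM-negative cells (40.2 CPM per kb), followed by Anln (30.7) and Cdc20 (29.6), and Dlgap5 the lowest (2.41). In culture Ube2c led with 142 CPM per kb, ahead of Ccnb2 with 111, and Ndc80 was lowest with 10.9.

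The rest of the division machinery was counted in the same way. A further 102 genes of mitotic entry, spindle, kinetochore, chromosome structure and the APC/C gave 52 higher and 3 lower in control EpCAM-negative against EpCAM-positive cells, 5 higher and 25 lower in depleted tumours, and 41 more and 2 less positive in the difference. In control against depleted tumours, 2 were higher and 53 lower in EpCAM-positive cells, and 22 higher and 12 lower in EpCAM-negative cells. As shares, the last are 21.6% and 11.8%, under the 23.2% and 21.9% of all tested genes, while 52% were lower in EpCAM-positive cells (17.6% of all), 51% higher between control fractions (13.3% of all) and 24.5% lower between depleted fractions (14.3% of all). The shares differed by complex. In the difference, 40.2% of the 102 were more positive, against 8.69% of all tested genes. Other spindle and cytokinesis genes gave 15 of 22 (68.2%) and other kinetochore and checkpoint genes 14 of 30 (46.7%). The remaining 17 APC/C genes gave 0, with 0 less positive, and for so few genes a count of 0 is near the share of all. Many APC/C subunits are made throughout the cycle, and whether this bears on their count was not tested.

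Of the single genes chosen by smallest p, Ckap2, a microtubule stabiliser, differed between the fraction changes by 2.20 ± 0.28 (adjusted p = 3.53e-06), and the phosphatase Cdkn3 by 2.14 ± 0.36 (adjusted p = 0.000136). The cohesin protector Sgo2a differed by 1.76 ± 0.24 (adjusted p = 6.96e-06) and the checkpoint protein Mad2l1 (Mad2) by 1.40 ± 0.19 (adjusted p = 6.07e-06). Against this pattern, Psrc1, a spindle protein that is also a p53 target, changed by -1.12 ± 0.18 (adjusted p = 3.29e-05) in control and was the 1 of its 22 genes called lower there. Anapc4, the APC/C subunit with the smallest p in the difference, had 0.27 ± 0.10 (adjusted p = 0.0755).

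Of 15 regulators of mitotic transcription, 2 were higher in control EpCAM-negative than in EpCAM-positive cells, Foxm1 and Tfdp1, a share equal to the 13.3% of all tested genes. Foxm1 lay at 13.6, 22.6 and 31.3 CPM in EpCAM-positive and 28.8, 39.9 and 61.5 CPM in EpCAM-negative control cells, a change of 0.97 ± 0.21 (adjusted p = 0.00112), and had -0.10 ± 0.21 in depleted tumours (adjusted p = 0.789). Its difference was 1.07 ± 0.30 (adjusted p = 0.0137), and its change from depleted to control was -0.95 ± 0.21 in EpCAM-positive (adjusted p = 0.00083) and 0.11 ± 0.21 in EpCAM-negative cells (0.694). Mybl2, which encodes B-Myb, passed in none of these, with 0.49 ± 0.24 (adjusted p = 0.133) in control tumours and -0.60 ± 0.24 (0.0503) in EpCAM-positive cells.

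DNA replication and G1/S genes act earlier in the cycle. Of 37, 11 were higher and 1 lower in control EpCAM-negative cells, 1 higher and 7 lower in depleted EpCAM-negative cells, and 10 more positive in the difference. Their median changes were 0.33, -0.21 and 0.50. As shares, 29.7% were higher in control (13.3% of all tested genes) and 27% more positive in the difference (8.69% of all). The 18.9% lower in depleted tumours lay near the 14.3% of all. In EpCAM-positive cells 17 (45.9%, against 17.6% of all) were lower and 1 higher in control than in depleted tumours, with a median of -0.32. Cdc45, a helicase subunit, changed by 0.69 ± 0.12 (adjusted p = 7.65e-05) between control fractions and by -0.96 ± 0.12 (3.81e-07) from depleted to control EpCAM-positive cells. Mcm2, of the same helicase, changed by 0.39 ± 0.13 (adjusted p = 0.0209) and -0.71 ± 0.13 (5.52e-05), and the sliding clamp Pcna had 0.06 ± 0.11 (0.751) and -0.26 ± 0.11 (0.0654).

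Among 18 CDK inhibitors and G1 regulators, 6 were higher and 4 lower in control EpCAM-negative cells, with no common direction. These are 33.3% and 22.2%, against 13.3% and 14.5% of all tested genes. The inhibitor Cdkn1a (p21), at 204, 323 and 395 CPM in EpCAM-positive and 176, 195 and 245 CPM in EpCAM-negative control cells, changed by -0.66 ± 0.13 (adjusted p = 0.000383), opposite to the mitotic genes. In depleted and control EpCAM-positive cells Cdkn1a had means of 347 and 315 CPM, with overlap. Its part in the mitotic differences was not tested. Ccnd1 (cyclin D1) went with the mitotic genes, by 0.46 ± 0.08 in control (adjusted p = 5.69e-05), -0.36 ± 0.08 in depleted tumours (0.000793) and -1.0 ± 0.08 from depleted to control EpCAM-positive cells (1.71e-10). Rb1, the pocket protein that restrains E2F, changed by 1.68 ± 0.16 and 1.71 ± 0.16 from depleted to control in the positive and negative fractions (adjusted p = 4.35e-09 and 2.1e-09).

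**Figure D5:**
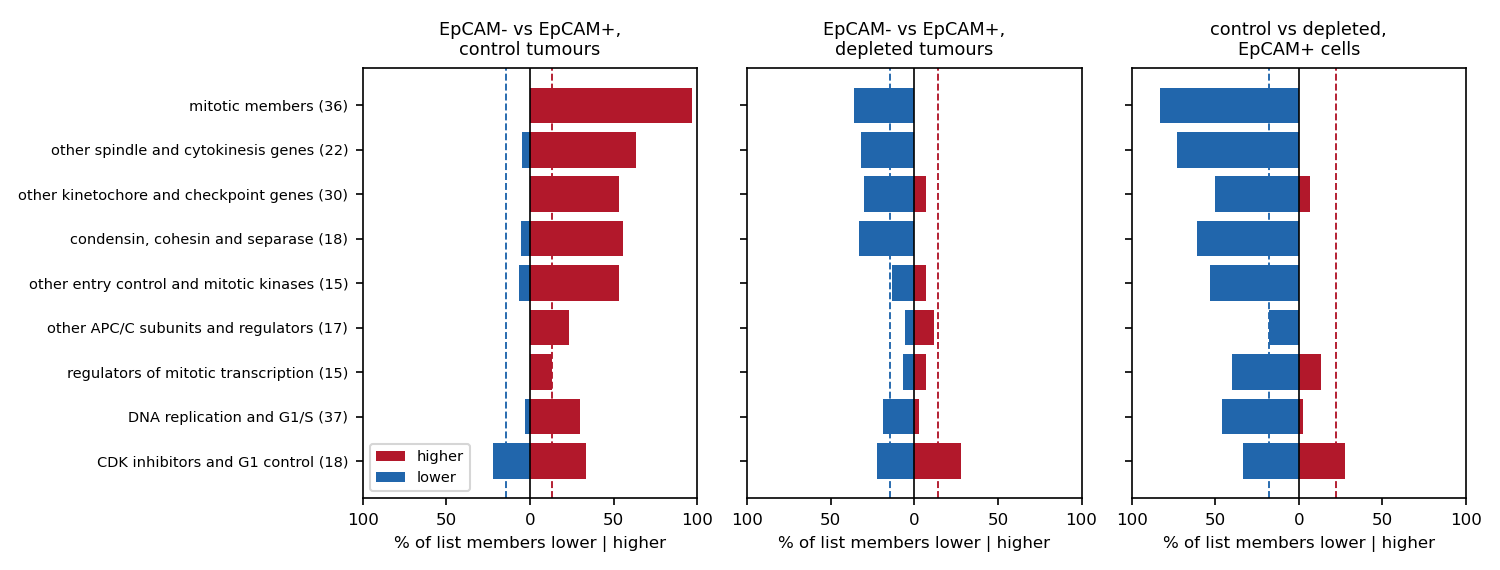
Percent of the genes of each list called higher or lower in each comparison, for the 36 mitotic members and the other lists of the division machinery. Dashed lines give the percent over all 16637 tested genes, such as 13.3% higher in control EpCAM-negative against EpCAM-positive cells, where 35 of 36 members were higher.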

How the data were processed

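RNA of sorted tumour cells and cultured E-A14 cells (0.1 to 1.0 ng) was turned into cDNA with SMARTer v4, amplified for 10, 12 or 14 cycles and sequenced as single reads of 50 bases, per the labels' protocols, with no molecular identifiers or strand marks. The authors deposited raw counts per gene, made with STAR on mm9, per the submitters' processing notes. The sources used here do not state the counter, annotation or strand setting. Sense and antisense partners cannot be told apart, and error estimates cover these libraries only.

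Groups were taken from sample titles. Counts were scaled by TMM and fitted over all 26 libraries with edgeR 4.0.16 (R 4.3.3, quasi-likelihood test, 1 coefficient per group), after its filter by expression left 16637 of 47730 features. Benjamini-Hochberg adjusted p under 0.05 was called. Mean log2 CPM used a prior count of 2. The pipeline was tested on simulated data. DESeq2 1.42.0, other scalings, no filter, fits of the compared groups alone, a replicate block and leaving out each library were alternatives. The labels do not say that equal numbers share a mouse, and the correlation of deviations of same-numbered libraries, 0.050 to 0.172 in control and 0.017 to 0.047 in depleted tumours, did not establish pairing. Whether culture replicates were separate is not stated. Named members are the 2 of smallest p per role, with Mki67, Top2a, Cdk1 and Ccnb1; up to 3 genes of other lists are named. Members and lists were chosen with earlier results of these data known. Promoters are from RefSeq. A second deposited table of normalised values was not used.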

Additional observations from a re-analysis of the deposited data

Results flagged for a closer look

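Of 156 sets of 6 libraries examined for a single library standing apart, 2 were picked out, and chance alone picks about 1 in 20. Cenpa reached 93.0 CPM in depleted EpCAM-positive library 5, with the nearest library at 72.3 CPM. Aurkb reached 24.6 CPM in control EpCAM-positive library 1, with the nearest at 13.6 CPM.

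The change from EpCAM-positive to EpCAM-negative cells differed between control and depleted tumours, by the test of the difference itself, for 29 of 36 members. Among them were 18 of the 20 named, most of which were picked by their small p in this same test. Differences in log2 units were 2.09 for Kif20a, 1.95 for Ccnb2 and Cdc20, 1.89 for Hmmr, 1.85 for Bub1, 1.84 for Cdc25c, 1.80 for Kif23 and 1.70 for Cenpe. They were 1.60 for Dlgap5, 1.56 for Cenpa, 1.55 for Anln, 1.54 for Cdca3, 1.50 for Ttk, 1.43 for Mki67, 1.35 for Birc5, 1.25 for Cdca8, 1.13 for Ccnb1 and 0.75 for Top2a. Collection day differed with treatment and cannot be told apart from it.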

How the results depend on the processing

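In the settings run, no member was called in the direction opposite to the main calls. The count of members higher in control EpCAM-negative cells (35) was 30 to 36 over the other settings and 32 to 35 over fits without 1 library. Members lower in depleted EpCAM-negative cells (13) numbered 22 in a fit of those groups alone and 9 to 13 without 1 library. Members passing the difference (29) numbered 26 to 34, and 27 to 32 without 1 library. Members lower in control EpCAM-positive cells (30) numbered 28 to 30, and 27 to 32 without 1 library. The 6 members higher in control EpCAM-negative cells than in depleted ones were 2 by library totals alone, and 3 to 8 without 1 library. Counts against culture stayed at 31 to 36. The sign of Cdk1 in the depleted fractions turned without depleted EpCAM-positive replicate 1, in a range of -0.087 to 0.0084 over fits without 1 library. That of Top2a turned to 0.0232 by library totals, 0.0030 without depleted EpCAM-negative replicate 2 and 0.0034 without depleted EpCAM-positive replicate 4, in a range of -0.066 to 0.0034. These causes were not tested. Library totals moved the median of all tested genes in control EpCAM-negative against EpCAM-positive cells from -0.01 to -0.15, and that of the members from 0.91 to 0.77.

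With the replicate block, which assumes that libraries of a treatment with the same number share a mouse, 36 members were higher in control, 18 lower in depleted EpCAM-negative cells and 34 passed the difference. Of the EpCAM-positive libraries, 4 of 6 control and 3 of 6 depleted ones correlated best with their own number, a hint from the data and not the design.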
